A study of Mus musculus with 2 samples.

Results

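Binding of the forkhead transcription factor Foxp4 was mapped by chromatin immunoprecipitation and sequencing (ChIP-seq) in mouse fat progenitor cultures on the way to becoming beige adipocytes. The results below concern the Foxp4 peaks that lie deep inside genes, in intron 2 or any intron after it. A peak was taken when its annotation named such an intron, when it lay more than 1000 bp from the nearest start site, and when it carried no repeat annotation. In all, 613 of the 3317 peaks met these conditions (18.5%, exact 95% binomial interval 17.2 to 19.8). They are called later-intron peaks here.

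The cells were the stromal vascular fraction (SVF) of inguinal white adipose tissue (iWAT) from C57BL/6 mice, with no genetic change named in the labels. This fraction is a mixture of progenitors, fibroblasts, vascular and immune cells, and the labels name no sorting step, so a peak cannot be placed in 1 cell type. The cells were grown for 3 days in 20% serum and then induced for 48 h in 10% serum with troglitazone at 5 µM, T3 at 50 nM, dexamethasone at 1 µM, isobutylmethylxanthine at 0.5 mM and insulin at 5 µg/ml. There was 1 Foxp4 ChIP library, whose peaks are analysed here, and 1 input DNA library from cells under the same medium, which is not analysed here. There is therefore no replicate, no group comparison and no p-value in what follows. Read depth is unknown, and the intervals describe counting error within this single library and nothing more.

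Foxp proteins bind DNA through a forkhead domain, pair with each other through a leucine zipper, and are best known as repressors of transcription. Introns hold many of the enhancers of a mammalian genome. An enhancer inside an intron can act on the gene that contains it or on a neighbouring gene. For this reason each peak is described both by its host, the gene whose transcript holds the intron, and by the gene with the nearest start site, and binding alone does not say which gene responds.

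Of 1271 peaks in introns, 471 were in intron 1 and 800 in later ones. From the 800, 184 were set aside because they lay on annotated repeats and 5 because they lay within 1000 bp of a start site, with 2 peaks in both groups. The members closest to the distance limit lay 1038 bp from a start site in Smoc2 (score 21), 1219 bp in Il6 (140) and 1306 bp in Pi15 (122). Just outside it, the 3 peaks without a repeat lay at 978 bp in Hnrnph1 (75), 402 bp in Palld (37) and 366 bp in Tle6 (47). The score is the authors' whole-number value for each peak, higher for stronger evidence of a peak, and serves here only to rank and describe peaks of this list.

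The reference sequences available here cover a few of these sites. RefSeq (GRCm38.p6) lists start sites that the peak annotation did not use, and 4 of the 583 later-intron peaks on the chromosomes with listed promoter windows overlapped such a window (0.686%, 0.187 to 1.75). This was the case for 1 of 313 peaks in intron 1 (0.319%, 0.00809 to 1.77) and for 20 of 1165 intergenic peaks (1.72%, 1.05 to 2.64), chosen with the same limits on distance and repeats. These 4 sites are shown because they are later-intron peaks that sit at an annotated start within the gene body. The sequences are the part of the 250 bases upstream of that start that the peak covers, 5′ to 3′ on the strand of the gene named, and capitals mark matches to the words searched.
Pim1, chr17:29492835-29493084, plus strand: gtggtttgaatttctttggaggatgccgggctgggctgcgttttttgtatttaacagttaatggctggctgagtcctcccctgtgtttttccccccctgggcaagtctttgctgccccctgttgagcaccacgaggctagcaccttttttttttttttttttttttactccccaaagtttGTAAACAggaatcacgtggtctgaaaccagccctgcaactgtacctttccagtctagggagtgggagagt
Gm51820 in Lrp1, chr10:127598747-127598991, plus strand: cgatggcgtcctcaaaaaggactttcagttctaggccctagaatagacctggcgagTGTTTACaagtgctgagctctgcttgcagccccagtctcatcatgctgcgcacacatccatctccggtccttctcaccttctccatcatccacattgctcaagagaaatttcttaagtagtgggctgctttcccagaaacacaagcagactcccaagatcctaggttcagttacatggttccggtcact
Gm35763 in Wdr95, chr5:149584291-149584540, minus strand: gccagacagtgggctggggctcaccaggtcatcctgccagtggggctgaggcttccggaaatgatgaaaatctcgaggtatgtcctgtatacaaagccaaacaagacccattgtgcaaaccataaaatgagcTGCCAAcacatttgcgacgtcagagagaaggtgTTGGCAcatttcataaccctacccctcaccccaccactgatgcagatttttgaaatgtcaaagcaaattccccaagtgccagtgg
Ptpa, chr2:30441797-30441852, plus strand: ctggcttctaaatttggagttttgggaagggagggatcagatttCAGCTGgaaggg

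The Pim1 and Lrp1 sites each held 1 match to the forkhead word TGTTTAC, which reads GTAAACA on the other strand. Both strands were searched for this word, for the forkhead words TGTTTGC or TATTTAC or TATTTGC, and for the words of AP-1 (TGACTCA), C/EBP (TTGCGCAA), NFI (the partial site TTGGCA) and a class of E-box (CAGCTG). Any of the 4 forkhead words was present in 11.9% of all 32851 RefSeq windows of 250 bases, and TGTTTAC in 3.17%. The Wdr95 site held 2 NFI words, present in 12.3% of the windows, and the 56 bases of the Ptpa site held an E-box word, present in 13% of windows of the full 250 bases. A match of this kind is a description of the letters and not evidence of which base Foxp4 contacted.

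Pim1 encodes a serine/threonine kinase, and its peak (score 81) lay in intron 4 of 5, 1618 bp from the start site that the annotation used and 422 bp from the RefSeq start shown. A further peak within 1000 bp of a start annotated to Pim1 had a score of 15. Lrp1, which encodes a large endocytic receptor, carried this peak (34) and another (69) in intron 6 of 88. The peak in Wdr95 (73) lay in intron 13 of 22 and that in Ptpa, an activator of a protein phosphatase, in intron 8 of 9 (27). Sequence of the other later-intron peaks is not shown here.

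The strength of later-intron peaks was much like that of other distal peaks. Their median score was 61 (exact interval of the median 57 to 66; quartiles 40 and 100; range 15 to 1145). Peaks in intron 1 had a median of 65 (60 to 70), intergenic peaks 63 (60 to 66) and all peaks 65 (62 to 66), all with overlapping intervals. A score of at least 100 was reached by 155 later-intron peaks (25.3%, 21.9 to 28.9), beside 27% of all peaks. At the low end, 64 later-intron peaks scored under 30 (10.4%, 8.13 to 13.1), against 62 of 323 peaks in intron 1 (19.2%, 15.0 to 23.9) and 158 of 1194 intergenic peaks (13.2%, 11.4 to 15.3). The median width was 396 bp (385 to 406), the same as in intron 1 (396) and close to that of intergenic peaks (399.5). The 182 later-intron peaks more than 1000 bp from a start site that were set aside for repeats had a median score of 75 (63 to 85), and 36.3% of them (29.3 to 43.7) scored at least 100. None of these differences was tested.

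**Figure D1:**
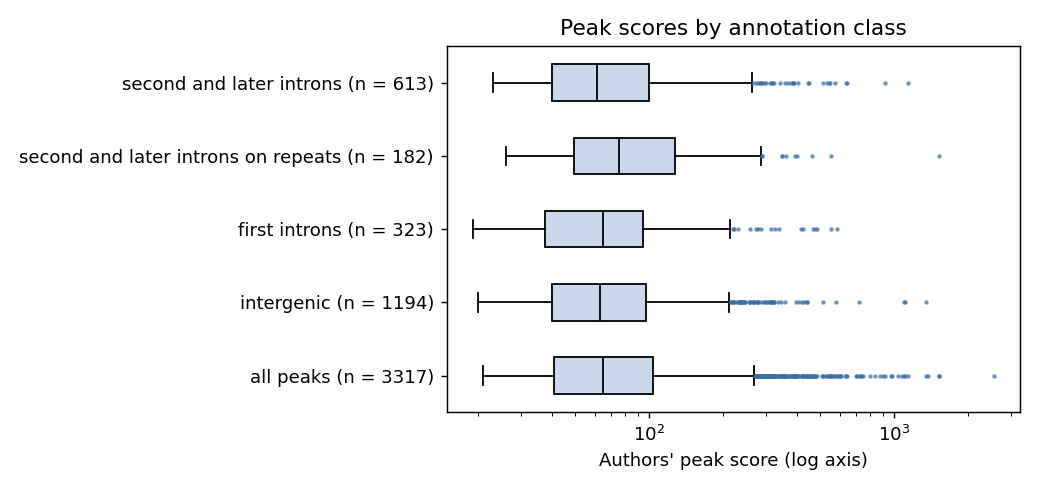
Authors' peak scores on a log axis for later-intron peaks with and without repeats, peaks in intron 1, intergenic peaks and all peaks. Boxes span the quartiles with the median as a line, whiskers the 5th to 95th percentiles, and points the peaks above that range. The boxes of later introns without repeats, intron 1 and intergenic peaks lie over each other, with medians of 61, 65 and 63.

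The strongest later-intron site lay in Kcnh1, a gene of a voltage-gated potassium channel, in its last intron (intron 10 of 10, score 1145, chromosome 1, 192450032 to 192450599), 260 kb from the nearest start site. It was followed by a site in Bgn, which encodes the matrix proteoglycan biglycan (intron 7 of 7, score 915, chromosome X, 73493358 to 73493845). The next highest were in Csrp2, a LIM-domain protein gene (intron 2 of 5, 641), and in Ebf1, a factor that promotes adipocyte differentiation (intron 10 of 15, 636, chromosome 11, 44926110 to 44927085). The other 6 of the 10 highest lay in Lpp, a focal adhesion protein gene (intron 3, score 574), Cdk14, a cyclin-dependent kinase gene (intron 5, 548), Lnx1, a ubiquitin ligase gene (intron 5, 544), Zbtb16 (intron 2, 530), Clvs1, a lipid-binding protein of clathrin-coated vesicles (intron 2, 512) and Prkg1, the gene of a cGMP-dependent protein kinase (intron 2, 449). Of these 10 sites, the 2 at Kcnh1 and Bgn were in the last intron and 4 were in intron 2. Later introns gave 9 of the 50 highest-scoring peaks of the whole list and 18 of the 100 highest. Within the class, wider peaks had higher scores (Spearman rank correlation 0.41 across 613 peaks of 1 library, a description with no test). The same held for peaks in intron 1 (0.36), intergenic peaks (0.36) and all peaks (0.38).

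Later-intron peaks were weighted to the early introns of their transcripts. The number in intron 2 was 154 (25.1%, 21.7 to 28.8), with 95 in intron 3, 154 in introns 4 to 6, 93 in introns 7 to 10, 71 in introns 11 to 20 and 46 from intron 21 on. The host transcripts had 2 to 102 introns, with a median of 13. Relative position was taken as the intron number less 0.5, divided by the number of introns. It was at or below 0.5 for 380 peaks (62.0%, 58.0 to 65.8) and above 0.75 for 108 (17.6%, 14.7 to 20.9). For comparison, each share was also taken over the introns from 2 on of the host transcript, counted equally within it, and averaged over the peaks. This gives 46.2% at or below 0.5, 26.4% above 0.75 and 14.1% for intron 2. Transcripts with several peaks enter this average several times. Intron lengths were not used here, and early introns are often the longer ones, so these shares are not rates per kb. The last intron held 62 peaks (10.1%, 7.84 to 12.8), where the same average over transcripts gives 14.1%.

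The score changed little along the gene. Its median was 63 in intron 2 (52 to 77), 66 in intron 3 (56 to 77), 55 in introns 4 to 6 (47 to 68), 62 in introns 7 to 10 (55 to 72), 53 in introns 11 to 20 (45 to 65) and 72 from intron 21 on (55 to 80). All 6 intervals overlap. Scores of at least 100 were found for 51 of the 154 peaks in intron 2 (33.1%) and for 9 of the 46 from intron 21 on (19.6%). The 3 peaks in the highest intron numbers were both peaks of Adgrv1, a very large adhesion receptor gene (intron 89 of 89, score 74, and intron 85, score 35), and a peak in Vps13d, a lipid transfer protein gene (intron 67 of 69, score 60).

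**Figure D2:**
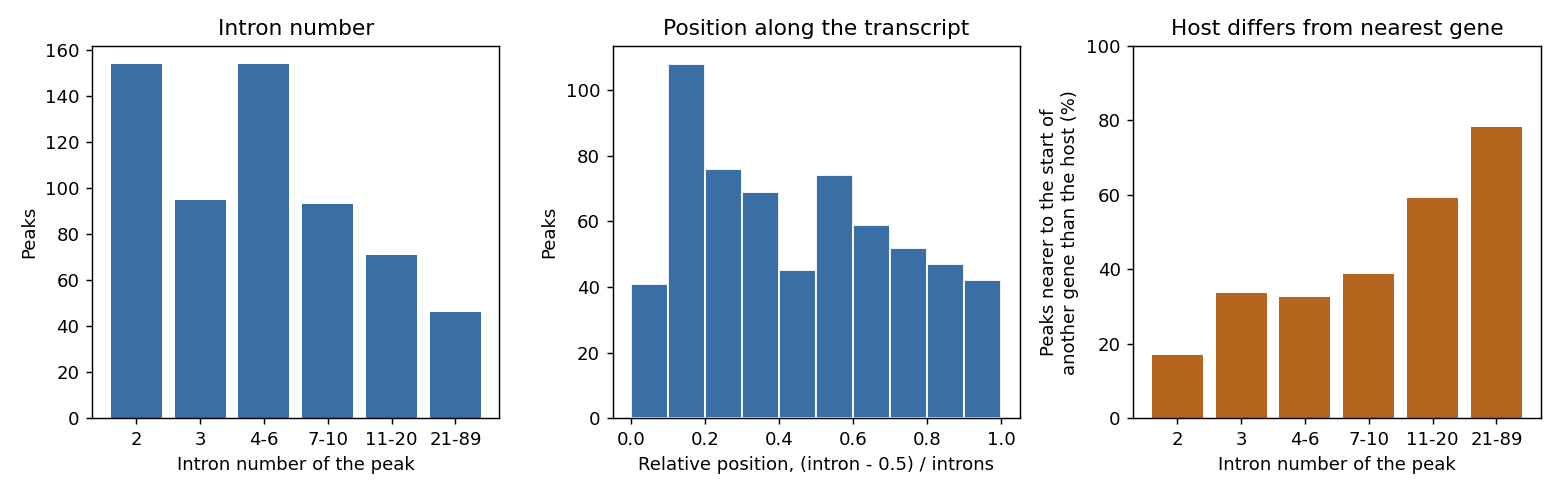
Left, number of later-intron peaks by intron number, with higher numbers pooled. Middle, relative position along the host transcript in steps of 0.1. Right, percent of peaks whose host gene is not the gene with the nearest start site, by intron number, which is 16.9% in intron 2 and 78.3% from intron 21 on.

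The nearest start site often belonged to a gene other than the host. Host genes were found through the annotated transcript for 612 of the 613 peaks, in 509 genes. For 222 of the 612 (36.3%, 32.5 to 40.2) the host and the nearest gene differed. Among peaks in intron 1 this was 31 of 322 (9.63%, 6.64 to 13.4), an interval that does not overlap the first. By intron number the share ran from 16.9% of peaks in intron 2 to 78.3% from intron 21 on. Where the 2 genes differed, the nearest was protein-coding for 117 peaks, non-coding RNA for 97, a pseudogene for 7 and a small nucleolar RNA for 1. These peaks lay a median of 56.9 kb (44.6 to 68.6) from that start site, in hosts with a median length of 209 kb (157 to 243). Peaks whose host was also nearest lay a median of 39.0 kb away (33.2 to 46.6), in hosts of 130 kb (111 to 147). The median score was 65 (55 to 72) with differing genes and 59 (55 to 65) without, with overlapping intervals.

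Several of the strongest sites are named for another gene in a list by nearest start site. The Bgn site lay 9485 bp upstream of Atp2b3, a calcium pump gene. The Ebf1 site lay 190 kb from the start of Gm12159, a non-coding RNA, and the Lpp site 34.9 kb upstream of a pseudogene, Morf4l1-ps1. The next were in Cabin1, a calcineurin inhibitor gene (intron 29 of 36, score 391, nearest Susd2), Pepd, a gene of a dipeptidase that cleaves proline-containing peptides (intron 13 of 14, 360, nearest Cebpg), Il1rap, a co-receptor of interleukin 1 (intron 2, 317, nearest Gm20319), Deptor, an inhibitor of mTOR (intron 8 of 8, 316, nearest Col14a1), Fbxl17 (intron 7 of 8, 312, nearest 4930405O22Rik), Sgcd, a sarcoglycan gene (intron 6 of 7, 295, nearest Timd4), and Fgf2, a fibroblast growth factor gene (intron 2 of 2, 283, nearest Nudt6). The Pepd site lay 14.9 kb from the start of Cebpg, a C/EBP family gene. Assignment to the nearest start would place the sites in Ebf1 and in Deptor at Gm12159 and at Col14a1, and no expression data here tell the genes apart.

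MicroRNA genes were the nearest gene for 42 later-intron peaks (6.85%, 4.98 to 9.15), and for 41 of these the host was another gene. Only 10 of the 42 lay within 10 kb of the microRNA start. The share among other peaks was not computed, so 6.85% is not a result particular to later introns. The start of a microRNA gene in such an annotation is that of its hairpin, not of its primary transcript. For 4 peaks close to a hairpin start, at 2325 to 3075 bp, mature sequences are printed because the annotation names these small RNAs in place of the hosts. Sequences are from RefSeq (GRCm38.p6), 5′ to 3′, with the seed, bases 2 to 8, in capitals, and no 2 of them share a seed.
mmu-miR-21a-5p in Vmp1: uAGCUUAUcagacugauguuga
mmu-miR-15a-5p in Dleu2: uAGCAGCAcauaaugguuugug
mmu-miR-717 in Gpc3: cUCAGACAgagauaccuucucu
mmu-miR-6962-5p in Acvr1b: aAGGACCUggugggagaucu

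Vmp1 encodes a membrane protein of autophagy, and its peak near Mir21a lay in intron 10 of 11, 3075 bp upstream of the hairpin (score 73). The peak near Mir15a lay in intron 3 of 6 of the non-coding gene Dleu2, 2360 bp upstream (73). In Gpc3, a glypican gene, the peak was 2553 bp downstream of the Mir717 start (77). In Acvr1b, an activin receptor gene, it was 2325 bp downstream of the Mir6962 start (133). All 4 scores lie above the class median of 61. For the hairpins with a mature RNA on each arm the 5p arm is printed.

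Most host genes had a single later-intron peak. There were 439 such hosts, 47 with 2 peaks and 23 with 3 or more, and the 70 hosts with at least 2 held 173 of the 612 peaks (28.3%, 24.7 to 32.0). The hosts with 2 peaks include the microRNA gene Mir297c, which is 0.098 kb long and cannot span its peaks, 58.1 kb apart. Rad51b, a gene of homologous recombination repair, had the most, with 6 peaks of scores 19 to 72. Of these, 4 were in intron 7 and 2 in intron 8, and together they spanned 324 kb of a gene of 551 kb. None of the 6 scored as high as 100. Per length this is 1.09 peaks per 100 kb.

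Zbtb16, a zinc finger transcription factor gene, had 4 peaks within 21.5 kb, at 2.17 per 100 kb. The peak in intron 2 scored 530 (chromosome 9, 48744877 to 48745541), and those in intron 3 scored 141, 90 and 51. A further later-intron peak of Zbtb16 lay on a repeat and is not among them. Nfia, a nuclear factor I gene, had 4 peaks spread over 320 kb. Those in intron 2 scored 228, 127 and 47, and a peak of 175 in intron 10 of 10 was nearer to the start of Tm2d1. Nfia also had 2 peaks in intron 1. The 3 peaks of Ebf1 scored 636 in intron 10, 79 in intron 6 and 61 in intron 11. In Zbtb16 and Ebf1 a single peak scored well above the others, while the peaks of Nfia were graded.

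Arid5b, which encodes an ARID-domain DNA-binding protein, had 4 peaks with scores of 109, 58, 45 and 40, and those of 58 and 45 were both in intron 3. The only neighbouring members with midpoints within 1000 bp of each other, 924 bp apart, were in intron 10 of Palld, a gene of an actin-binding protein. Fndc3b, a gene of a fibronectin type III protein, also had 4, with 127, 121, 43 and 39. All 4 were nearest to the same microRNA gene, Mir3092. Lrmda had 4 peaks (47 to 94) over 797 kb, and the non-coding gene Gm38407 had 4 (32 to 81) within 50.5 kb. Vmp1 had 4 (17 to 73) in a gene of 100 kb. At 4.71 and 4 peaks per 100 kb, Gm38407 and Vmp1 were the densest of the 8 hosts with at least 4. Among hosts with 3 peaks, those with the highest scores after Ebf1 were Prkg1 (449, 217 and 38), Deptor (316, 117 and 75) and Pcsk5, a proprotein convertase gene (164, 68 and 30).

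**Figure D3:**
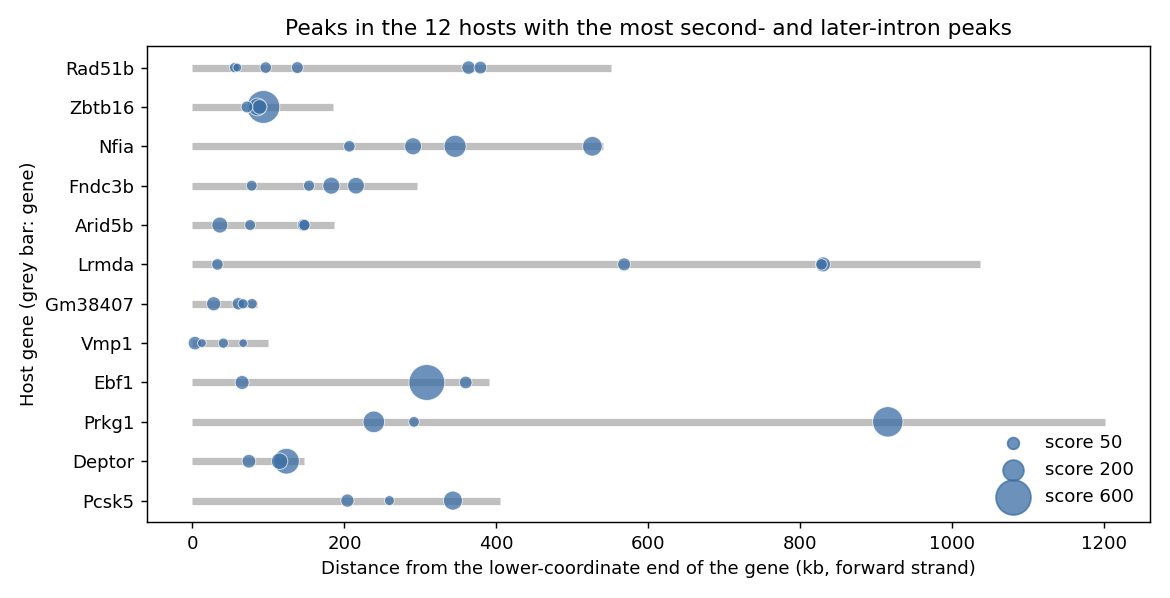
Later-intron peaks (circles, area rising with the score) in the 12 hosts with the most of them, ordered by number and then by highest score. Grey bars are the genes, drawn from their lower-coordinate end in kb on the forward strand. The 4 peaks of Zbtb16 sit within 21.5 kb, while the 4 of Nfia spread over 320 kb.

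A minority of hosts also had a peak near a start site annotated to them, a larger share than among all genes. Of the 477 protein-coding hosts, 21 had a peak within 1000 bp of such a start (4.40%, 2.75 to 6.65), beside 1.46% of all protein-coding genes. Among hosts over 100 kb there were 17 of 300 (5.67%, 3.34 to 8.92), beside 2.02% of all protein-coding genes of that length. All genes here include the hosts, and the difference was not tested. The start counted need not be the first of the gene. In Palld the start-site peak has the same score, 37, as the peak in intron 10 of 21 that lay 402 bp from a start. In Il6, an interleukin gene, the peak in intron 2 (score 140, 1219 bp from the start) stood beside a start-site peak of 65. In Pde4b, a cAMP phosphodiesterase gene, an intron 5 peak of 80 stood beside a start-site peak of 141. In Deptor the start-site peak scored 46, below all 3 intron peaks. A peak in intron 1 was present in 47 of all 509 hosts, protein-coding or not (9.23%, 6.86 to 12.1). Here peaks in intron 1 near a start site or on repeats count too, so some may also be start-site peaks. Of all 407 genes with such a peak in intron 1, 66 had a start-site peak (16.2%, 12.8 to 20.2), a share that this overlap can raise. The share of all genes with a peak in intron 1 was not computed.

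Host genes were long. The median length of the 477 protein-coding hosts was 139 kb (125 to 153), against 17.2 kb (16.8 to 17.6) for all 21887 protein-coding genes of the RefSeq table. This is not particular to later introns. The 254 protein-coding hosts of peaks in intron 1, chosen with the same limits, had a median of 106 kb (92.8 to 119). A later-intron peak was hosted by 2.18% of all protein-coding genes and by 12.4% of the 2429 that are over 100 kb long. The share of hosts was 0.194% for genes up to 20 kb, 1.37% from 20 to 50 kb, 3.34% from 50 to 100 kb, 8.55% from 100 to 200 kb, 16.9% from 200 to 500 kb and 21.1% above 500 kb. Per Mb of gene, the number of peaks was 0.256 (0.163 to 0.385) in the shortest class, 0.733 (0.618 to 0.862) from 100 to 200 kb and 0.378 (0.297 to 0.476) above 500 kb. The Mb are those of whole genes, with exons, intron 1 and the start region. These densities are therefore not rates over later-intron sequence. Hosts were thus mostly long genes, and short genes have less intron sequence beyond 1000 bp of a start site. Of the 612 peaks, 572 had a protein-coding host, 35 a long non-coding RNA gene, 4 a microRNA gene and 1 a transcribed pseudogene. For 6 peaks, those of the microRNA genes among them, the matched gene does not span the peak midpoint. Their host is a name from the annotated transcript only.

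**Figure D4:**
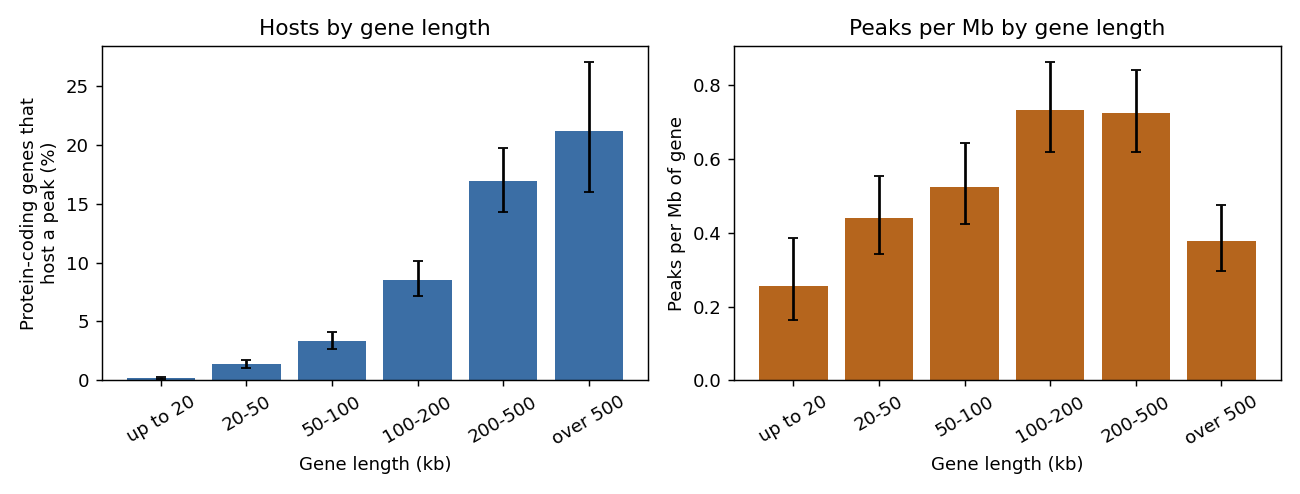
Left, percent of protein-coding genes in each length class that host a later-intron peak, with exact 95% binomial intervals. Right, later-intron peaks per Mb of whole protein-coding gene, not of later-intron sequence, in the same classes, with exact Poisson intervals. The share of hosts rises from 0.194% to 21.1%, while peaks per Mb are highest from 100 to 500 kb.

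The gene lists from here on were chosen with earlier results of these data known. A share of hosts above that of all genes is therefore a description and not independent support. Transcription factors of adipocyte differentiation were hosts in 7 of 34 cases (20.6%, 8.70 to 37.9), beside 2.18% of all protein-coding genes. Beside Ebf1, Zbtb16 and Nfia these were Tcf7l2, a Wnt effector (score 43), Ebf2 (42), Nfib (32) and Rxra, the shared partner of many nuclear receptors (25). The first 3 had 11 of the 15 peaks in the list and all scores above 43. Of the 13 listed regulators over 100 kb, 6 were hosts (46.2%, 19.2 to 74.9), beside 12.4% of all genes of that length. Pparg, Ppargc1a, Prdm16 and Ucp1 hosted none. Ebf2, a factor of brown and beige fat, carried its peak in intron 6 of 15, nearest to Gm6878. Runx2, a factor of bone formation and outside the lists, had 2 later-intron peaks (381 and 48), and was named after its values were seen.

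Nuclear receptor genes were hosts in 6 of 39 cases (15.4%, 5.86 to 30.5), beside 2.18% of all protein-coding genes. Among those over 100 kb they were 2 of 13 (15.4%, 1.92 to 45.4), near the 12.4% of all genes of that length. Esr1, an oestrogen receptor gene, had the highest score (121, intron 3 of 8), followed by Pgr, the progesterone receptor gene (76), Rara, a retinoic acid receptor gene (67), and Ppard (49). Among forkhead genes 3 of 34 were hosts (8.82%, 1.86 to 23.7): Foxk1 (183), Foxn3 (137) and Foxo3, with 3 peaks of 102, 62 and 42 in intron 2 of 3. Of Foxp1, Foxp2 and Foxp4, none had a later-intron peak, and the 4 intron peaks of Foxp1 were all in intron 1. Chromatin regulators were hosts in 5 of 47 cases (10.6%, 3.55 to 23.1), led by the histone methyltransferase gene Kmt2c (94), the deacetylase gene Hdac4 (90) and the remodeller gene Smarca2 (77), all with 1 peak. All 5 were among the 21 listed chromatin genes over 100 kb (23.8%, 8.22 to 47.2).

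Matrix genes held the largest share of hosts among the 22 lists described. Of 47 genes for matrix glycoproteins, proteoglycans and matrix enzymes, 13 were hosts (27.7%, 15.6 to 42.6, beside 2.18% of all protein-coding genes), with 18 peaks. After Bgn these were led by Efemp1, the gene of fibulin 3 (386, intron 4 of 10), Ltbp1, which binds latent TGF-beta (257 and 17), Lama2, a laminin chain gene (199, intron 39 of 63), and Mmp2, a gelatinase gene (192, intron 7 of 12). Among the 16 of these genes over 100 kb, 8 were hosts (50%, 24.7 to 75.3), beside 12.4% of all genes of that length. Bgn at 12.3 kb and Mmp2 at 26.1 kb are short hosts with high scores. The disintegrin-type protease gene Adamts17 had 3 weak peaks (38, 35 and 24).

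Collagen genes were hosts in 7 of 31 cases (22.6%, 9.59 to 41.1), beside 2.18% of all protein-coding genes. They are long, with a median of 121 kb. Among the 19 over 100 kb, 6 were hosts (31.6%, 12.6 to 56.6), beside 12.4% of all genes of that length. Each of the 7 hosts had 1 peak, and none scored above 80. Col4a4 (80), Col24a1 (76), Col27a1 (68) and Col4a1 (65) were the highest, followed by Col4a2, Col12a1 and Col6a3. Thus 3 of the 7 are genes of basement membrane collagen IV, which lie as head-to-head pairs in the genome. The intron 13 site of Col3a1 lay on a repeat and is not counted here.

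Adhesion receptors were hosts in 9 of 43 cases (20.9%, 10.0 to 36.0), beside 2.18% of all protein-coding genes. All 9 were among the 30 listed genes over 100 kb (30%, 14.7 to 49.4), beside 12.4% of all genes of that length. The highest scores were at Fat4, an atypical cadherin gene (272, intron 11 of 16), Ptprm, a receptor phosphatase gene (266), Itgb5, an integrin gene (166), and Nrcam (83). Axon guidance genes were hosts in 5 of 47 cases (10.6%, 3.55 to 23.1), and in 4 of 33 among those over 100 kb (12.1%, 3.40 to 28.2), about the share of all genes of that length. The leading scores there were at Plxnd1 (80), Ntn4 (74), Sema6d (45) and Nrp1 (43).

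Signalling genes gave shares of hosts that differed between lists, to be read against the 2.18% of all protein-coding genes. For genes over 100 kb the share to read against is 12.4%. Growth factor receptors and insulin signalling had 7 hosts of 42 (16.7%, 6.97 to 31.4), and 3 of 15 among those over 100 kb (20%, 4.33 to 48.1). The hosts with the highest scores were Ntrk2, a neurotrophin receptor gene (154 and 49), Foxo3, Igf1r, an insulin-like growth factor receptor gene (100 and 31), and Mtor (72 and 49). Of the cAMP and adrenergic genes 4 of 44 were hosts (9.09%, 2.53 to 21.7): the anchoring protein genes Akap6 (155) and Akap7 (87) and the phosphodiesterase genes Pde4d (124, 111 and 38, all in intron 3) and Pde4b (80). All 4 were among the 25 listed genes over 100 kb (16%, 4.54 to 36.1), near the 12.4% of all genes of that length. Wnt signalling had 4 of 46 (8.70%, 2.42 to 20.8), namely Daam1, a formin gene of the non-canonical branch (106 and 68), Wnt2 (58), Tcf7l2 (43) and Ror1 (41). Of the 14 Wnt genes over 100 kb, 3 were hosts (21.4%, 4.66 to 50.8). TGF-beta and BMP signalling had 2 of 41 (4.88%, 0.596 to 16.5), Acvr1b (133) and Tgfbr3 (52 and 41), with 1 of 8 among those over 100 kb (12.5%, 0.316 to 52.7). Circadian clock genes had 1 of 24, Per2 (142, intron 9 of 22), and glucocorticoid-induced genes 1 of 24, Zbtb16.

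Among genes of mature fat the counts of hosts were too small to set them apart from all genes. Lipid storage and lipolysis genes hosted none of 39 (exact interval 0 to 9.03%). Their median length was 18.6 kb, close to that of all protein-coding genes, so few would be hosts at the background of 2.18%. Thermogenic and beige fat genes had 2 of 40 (5%, 0.611 to 16.9), Ebf2 and Esrrg (21), which are also in other lists. Neither list can be told from the background at these counts.

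Markers of cell types that the fraction could hold are read here against the 2.18% of all protein-coding genes. Progenitor and fibroblast markers had 2 of 25 (8%, 0.984 to 26.0), Meox1 (180, intron 2 of 2) and Dpp4 (47, intron 5 of 25). Endothelial markers had 1 of 15 (6.67%, 0.169 to 31.9), Vwf (16). Mesothelial and epithelial markers had 3 of 15 (20%, 4.33 to 48.1), Wt1 (233), Esr1 (121) and Prlr (60). Theirs is the only interval of these marker lists that lies above 2.18%. However, Esr1 (394 kb) and Prlr (172 kb) are long genes, and Esr1 is also in the nuclear receptor list. Of the 3 listed mesothelial and epithelial genes over 100 kb, 2 were hosts (66.7%, 9.43 to 99.2). This wide interval holds the 12.4% of all protein-coding genes of that length. Macrophage markers and smooth muscle and pericyte markers had none of 15 each (exact upper limit 21.8%). Neuronal genes, with a median length of 533 kb, had 2 of 24 (8.33%, 1.03 to 27.0), Dlg2 (45) and Nlgn1 (28). Of the 21 neuronal genes over 100 kb, 2 were hosts (9.52%, 1.17 to 30.4), near the 12.4% of all genes of that length. A peak inside a marker gene does not show that the gene is expressed.

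**Figure D5:**
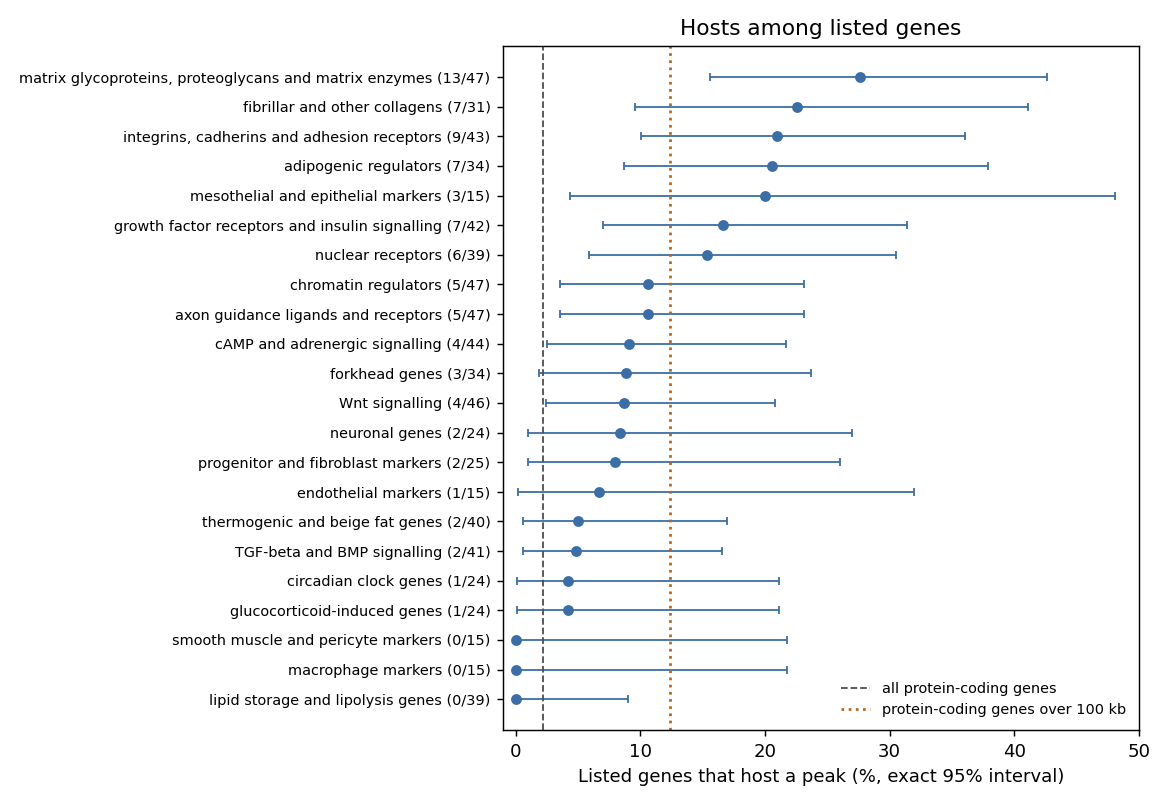
Percent of the genes of each of 22 lists that host a later-intron peak, with exact 95% binomial intervals and the counts in brackets. Lines mark the share of all protein-coding genes (2.18%) and of those over 100 kb (12.4%). The matrix list is highest at 27.7%, and 3 lists are at 0.

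Later-intron peaks lay about as far from start sites as intergenic peaks did, and mostly alone. Their median distance from the nearest start was 45.1 kb (38.8 to 53.8), against 48.7 kb (44.3 to 54.1) for intergenic peaks and 14.4 kb (12.2 to 17.5) for peaks in intron 1, all chosen to lie over 1000 bp away, with 138 of 613 over 100 kb away (22.5%, 19.3 to 26.0). The 5 farthest were the 2 peaks in Macrod2 (1064 and 1058 kb, nearest Flrt3, scores 55 and 67), Nlgn1 (630 kb, 28), Il1rapl1 (562 kb, 38) and Smyd3 (472 kb, 152). Another peak of the full list lay within 10 kb for 66 of them (10.8%, 8.43 to 13.5), against 15.2% in intron 1 (11.4 to 19.6) and 12.6% of intergenic peaks (10.7 to 14.6). By chromosome, autosomes carried 20 to 49 later-intron peaks and chromosome X 9, which were 12.5% (chromosome 7) to 27.0% (chromosome 18) of all peaks on the autosomes and 24.3% on X. The midpoint of 51 peaks (8.32%, 6.26 to 10.8) lay inside more than 1 gene of the table, as at the clustered protocadherin genes, where 25 gene spans overlap. For those peaks the host is 1 of several possible genes.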

How the data were processed

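The values are the authors' deposited peak list of 1 ChIP library, annotated with HOMER annotatePeaks.pl on mm10, per the file headers. The score is the authors' own per-peak value, and no source used here defines it. The submitters' processing notes list deepTools 3.3.0, MACS2, SAMtools, Picard and Bowtie2, and give neither settings nor the use of the input. Intron numbers, distances in bp (the other deposited columns), repeats and nearest genes are those of the file.

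Transcripts were matched to a RefSeq gene table (GRCm38.p6, the assembly behind mm10). The unmatched peak lies inside Auts2. For 6 matched peaks, at small non-coding RNA genes and 1 transcribed pseudogene, the midpoint lay outside the gene's span. Of 749 listed symbols 748 matched. Shares have Clopper-Pearson intervals, medians order-statistic intervals and densities Poisson intervals, all at 95% (Python 3.11.15, SciPy 1.17.1). These functions and the selection rule were tested on simulated data.

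Members and lists were chosen with earlier results of these data known. Named were the 10 highest peaks, up to 12 hosts with 3 or more, the 10 highest with another nearest gene, up to 4 hosts per list, extremes of distance and intron number, and 10 genes in every case. Lower-scoring list hosts, Pim1, Lrp1, Wdr95, Ptpa, Il6 and microRNA neighbours were chosen after their values were seen. The results of 1 of the 23 lists are not reported here, though its genes count in the total of listed hosts.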

Additional observations from a re-analysis of the deposited data

How the results depend on the processing

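Of 54 values recomputed under alternatives, 46 stayed within the interval of the reported value, or within 1.5 times for counts. Keeping peaks at or above the median score of 65 left 290 peaks in 265 hosts, 21 hosts with at least 2 peaks and 48 listed hosts (from 613, 509, 70 and 86), since fewer peaks enter. The median width was then 443 bp (from 396), and the cause was not tested. Keeping repeats gave 109 hosts with at least 2 peaks. From intron 3 on, the host differed from the nearest gene for 42.8% of peaks and 52.5% lay at a relative position at or below 0.5, since the earliest introns are left out. A score of at least 30, a limit of 3 kb, no distance limit, hosts by gene body, merging peaks within 1 kb and adding intron 1 to the list counts moved nothing beyond those bounds. The planned motif scan of whole peaks and of their centres was not run, because no genome was used here. No paired analysis was possible because there is 1 ChIP library. Unknown depth limits what a low score or a missing peak can show.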
